A study of Homo sapiens with 6 samples.

Results

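The genes described here encode the enzymes and transporters that break glucose down to pyruvate and lactate (glycolysis) and those that feed pyruvate into, and run, the tricarboxylic acid (TCA) cycle. They were chosen as every probe set whose annotated symbol is 1 of 43 listed genes, control probe sets left out; 40 of the 43 were measured, on 95 of the 54613 probe sets tested, among 21357 genes in all. The other 3 (SLC16A1, SLC16A3 and FH) were not analysed here. Of the measured genes, 22 belong to glycolysis and glucose uptake and 18 to the pyruvate dehydrogenase step and the TCA cycle, and the 2 groups are described apart.

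All RNA came from MCF10A, a human breast epithelial line that grows without end but forms no tumours, so every array reads the same cultured line. Cells of the mimic group received a mimic, given in the labels for miR-221 together with miR-222, and cells of the control group miR-control, with 3 replicates, called biological in the labels, and 3 single-colour arrays in each; dose, time and the control's sequence were not analysed here. How far the replicates were apart (separate cultures, separate days) is not said there, so the p-values measure the spread between these samples only. Values are log2 intensities per probe set. A difference is mimic minus control on that scale, and a gene was read at its probe set with the highest mean over the 6 arrays. Because total RNA of whole cultures was read, fewer cells of a type and less RNA per cell cannot be told apart. Rose and fell are written of genes with an adjusted p under 0.05 in limma, adjusted by Benjamini-Hochberg over all 54613 probe sets.

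Glycolysis splits glucose in the cytosol, yields a little ATP and ends in pyruvate, which lactate dehydrogenase can turn into lactate. In mitochondria the pyruvate dehydrogenase complex makes acetyl-CoA from pyruvate, and the TCA cycle oxidises it for the respiratory chain. Dividing epithelial cells in culture run glycolysis even where oxygen is plentiful. Many steps have several genes for 1 reaction, and the hexokinase, phosphofructokinase and enolase genes are under separate control in different tissues.

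The mimic's own sequence was not analysed here. Both microRNAs named for it are shown by their mature 3p sequences. Capitals mark the seed, the bases 2 to 8 that do most of the target pairing. Both are encoded on the X chromosome, and the sequences and positions are RefSeq's on GRCh38.p14 (chrX:45746180-45746202 and chrX:45747036-45747056, minus strand).
miR-221-3p: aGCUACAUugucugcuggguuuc
miR-222-3p: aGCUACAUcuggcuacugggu
The seeds are the same, and the first 8 bases are shared. No target site in a member was searched for here.

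The array medians lay between 7.59 and 7.66 and the highest values between 14.90 and 14.95. Of 8 markers of basal or general mammary epithelium, 6 were measured, each with a mean above the median of all probe sets. Of these 6, 5 fell (KRT14 most, a difference of -2.23, then KRT5, EPCAM, ITGB4 and CDH1), and LAMB3 rose. The log2 of their summed level lay at 13.97 to 14.06 with the mimic and at 15.12 to 15.19 with the control. Of 6 fibroblast markers DCN rose by 1.66 and LUM fell, and COL1A1, COL1A2, COL3A1 and PDGFRA did not pass. The summed level of the 6 lay at 13.84 to 13.92 with the mimic and 12.44 to 12.54 with the control. DCN made up most of it, with means of 13.72 and 12.06. LUM lay far below the array medians in both groups, with means of 4.09 and 5.15. Of 5 luminal markers 3 fell, and of 4 endothelial and 4 blood cell markers 1 fell in each (KDR and CD14). For RNA quality, the 3′ probe set of ACTB among the array controls exceeded the 5′ one by 0.36 on average with the mimic and by 0.32 with the control (exact permutation p = 0.3), and for GAPDH the averages were 0.03 and -0.01 (exact permutation p = 0.1, the smallest p that 3 arrays against 3 allow). The part of these shifts in the results below was not tested.

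The comparison asks which glucose-metabolism transcripts differ between cells given the microRNAs and cells given the control. HK2, a hexokinase of growing cells that phosphorylates glucose, fell 2.07-fold, the largest change among the members. PGAM1, ENO1, PKM and LDHB, which act late in glycolysis, fell by less, as did GPI and PFKFB2. The phosphofructokinase genes PFKL and PFKP, PFKFB4 and the second enolase gene ENO2 rose. In all, 4 of the 22 glycolysis genes rose and 7 fell. Over all 21357 genes 30.7% were called, 14.3% higher and 16.4% lower, a background that includes dim genes. Without the dimmest 40% of probe sets, 3131 of 16348 genes rose and 3584 fell, and in glycolysis 4 rose and 8 fell. The median difference was -0.12 in glycolysis genes and 0.03 over all genes. In 14 of the 22 the mimic arrays all lay below the control arrays, and in 5 all above; over all genes the shares were 22.0% and 23.9%, 45.8% together. In 17 of the 22, mimic replicate 1 was the lowest of the 3 mimic arrays, as it was in 47.9% of all genes; without it 4 rose and 6 fell, and its part in the result was not tested.

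**Figure D1:**
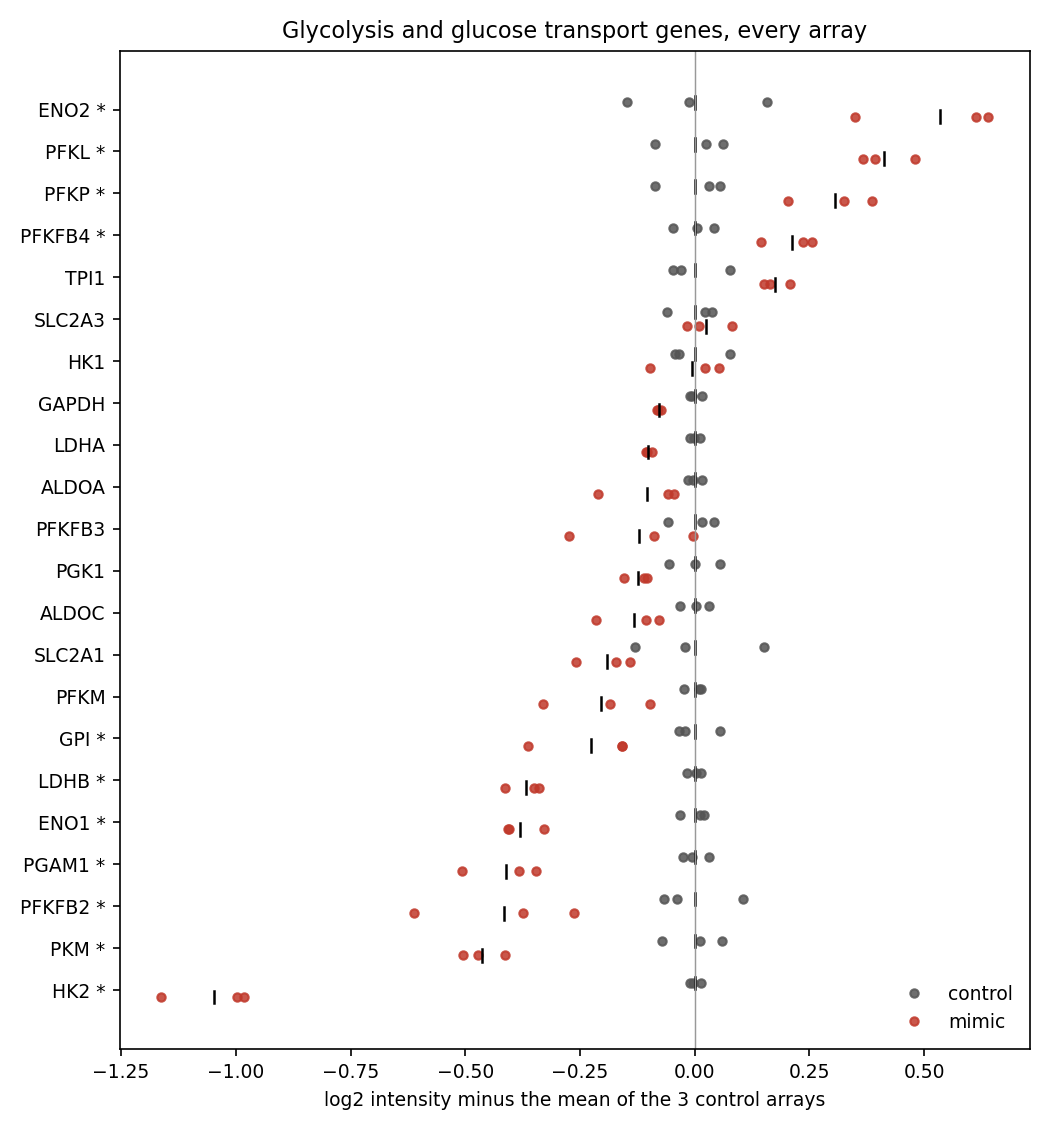
Log2 intensity of the 22 glycolysis and glucose transport genes in each of the 6 arrays, as the distance from the gene's mean in the 3 control arrays (x axis); each gene is a row (y axis), points are arrays (grey control, red mimic), bars are group means, and an asterisk marks an adjusted p under 0.05 in limma. HK2 stands apart at a mean of -1.05, and ENO2 is highest at 0.53.

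Glucose uptake and the hexokinase step come first. SLC2A1, the main glucose transporter gene of epithelial cells, had a difference of -0.19 ± 0.08 (SE) and did not pass (limma adjusted p = 0.109), except without control replicate 3 (adjusted p = 0.0429). For SLC2A3, a glucose transporter with high affinity, the brightest of 5 probe sets also lists SLC2A14 and had a difference of 0.02 ± 0.06 (SE), which did not pass; of the 3 that list SLC2A3 alone, 2 rose, by 0.24 and 0.31, and the third was at 0.19. All 5 averaged 7.42 or less, below the array medians. HK2 read 9.04, 9.05 and 9.07 in the control arrays and 7.89, 8.06 and 8.07 in the mimic arrays. The mimic arrays all lay far below, with the 3 control arrays nearly equal (difference -1.05 ± 0.07 SE, limma adjusted p = 7.3e-07). The other HK2 probe sets fell too, by 0.53 and 0.35, so all 3 were called. HK1, the hexokinase of most tissues, had a difference of -0.01 ± 0.07 (SE) and did not pass (adjusted p = 0.958). The HK1 to HK2 log2 ratio within an array was higher by 1.04 ± 0.04 (SE, n = 3 each) in the mimic arrays, with no overlap of the groups (exact two-sided permutation p = 0.1).

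HK2 and ENO2, the members with the largest fall and the largest rise, are shown with the 250 bases before each RefSeq start site (GRCh38.p14, plus strand of chr2:74833877-74834126 and chr2:74834920-74835169 for the 2 HK2 starts, and of chr12:6914330-6914579 for ENO2). Capitals mark ACGTG and GCGTG, the core letters that hypoxia-inducible factors bind, on either strand. CACGTG, the letters bound by MYC and its relatives, overlaps ACGTG and holds it on both strands.
HK2, first start: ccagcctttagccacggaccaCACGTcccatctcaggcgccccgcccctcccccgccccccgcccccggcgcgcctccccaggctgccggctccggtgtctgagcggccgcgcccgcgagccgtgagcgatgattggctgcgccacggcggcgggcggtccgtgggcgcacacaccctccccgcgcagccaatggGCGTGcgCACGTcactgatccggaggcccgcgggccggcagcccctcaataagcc
HK2, second start: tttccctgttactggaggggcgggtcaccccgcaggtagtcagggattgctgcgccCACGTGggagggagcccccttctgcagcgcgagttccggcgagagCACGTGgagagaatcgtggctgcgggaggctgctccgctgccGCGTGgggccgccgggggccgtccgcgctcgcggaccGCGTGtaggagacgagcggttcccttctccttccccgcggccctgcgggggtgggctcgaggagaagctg
ENO2: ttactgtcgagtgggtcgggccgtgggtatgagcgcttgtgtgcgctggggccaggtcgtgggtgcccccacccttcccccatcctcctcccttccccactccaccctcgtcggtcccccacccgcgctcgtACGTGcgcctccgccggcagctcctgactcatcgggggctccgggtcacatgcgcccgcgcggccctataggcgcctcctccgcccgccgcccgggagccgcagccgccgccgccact
The second HK2 window held CACGTG in 2 places, and the ENO2 window held ACGTG once. Each start site was counted as its own window, and windows of the same gene can overlap, as those of HK1 and PFKM do. The shares below are therefore of windows and not of genes, and they were not compared by a test. Of all 35093 such windows, from 27305 genes, 43.2% held ACGTG or GCGTG and 6.34% CACGTG. Of the 41 windows of 20 glycolysis genes, 53.7% held ACGTG or GCGTG and 14.6% CACGTG, and of the 20 windows of 17 pyruvate dehydrogenase and TCA cycle genes, 12 windows and 1 window did. Of 7 windows of 6 glycolysis genes that fell, 1 held CACGTG, and of 7 windows of 4 that rose, 0 did. Windows of ALDOA, ALDOC, GAPDH, LDHA and PFKFB3, which did not pass, held CACGTG too. These are matches of letters, and binding was not measured.

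The next steps isomerise, phosphorylate and split the sugar. GPI, glucose-6-phosphate isomerase, fell by 0.23 ± 0.07 (SE), from 12.29 ± 0.05 to 12.06 ± 0.12 (SD, n = 3 each; limma adjusted p = 0.0422). That call was lost without control replicate 1 (adjusted p = 0.0962), 2 (0.142) or 3 (0.0633) and without mimic replicate 1 (0.0975) or 2 (0.0619), after quantile normalization again (0.0627) and with an intensity trend removed (0.115). The 3 phosphofructokinase genes, whose products catalyse the main control point of glycolysis, did not move alike. PFKL, the liver-type subunit, read 9.81, 9.69 and 9.84 in the control arrays and 10.15, 10.26 and 10.17 in the mimic arrays. Every mimic array lay above every control array (1.33-fold higher, limma adjusted p = 0.000747), and the second PFKL probe set rose by 0.48. PFKP, the platelet-type subunit, rose by 0.31 ± 0.07 (SE), from 11.61 ± 0.08 to 11.91 ± 0.09 (SD, n = 3 each); its other probe set, at 0.01, did not pass. PFKM, the muscle-type subunit, had a difference of -0.21 ± 0.07 (SE) and did not pass (adjusted p = 0.058), although its mimic arrays lay below its control arrays; it passed with mimic replicate 3 left out (adjusted p = 0.0244), after array median centring (adjusted p = 0.046) and in 4 further settings. The PFKM to PFKP log2 ratio fell by 0.51 ± 0.07 (SE, n = 3 each) without overlap of the groups (exact permutation p = 0.1), while the PFKL to PFKP ratio moved by 0.11 ± 0.07 (SE, n = 3 each) and its groups overlapped (exact permutation p = 0.3).

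Fructose 2,6-bisphosphate, the strongest activator of phosphofructokinase, is made and removed by the PFKFB enzymes. PFKFB2 read 8.71, 8.54 and 8.57 in the control arrays and 7.997, 8.23 and 8.35 in the mimic arrays. Mimic replicate 1 was lowest and the groups did not overlap (limma adjusted p = 0.00562), but the other 3 PFKFB2 probe sets, from -0.19 to 0.08, did not pass. PFKFB3, which favours synthesis of the activator, had a difference of -0.12 ± 0.08 (SE; adjusted p = 0.299) and overlapping groups. PFKFB4 rose by 0.21 ± 0.06 (SE; limma adjusted p = 0.0291), and its second probe set was at 0.01. The PFKFB4 call was lost without control replicate 1 (adjusted p = 0.0563), 2 (0.105) or 3 (0.0616) and without mimic replicate 2 (0.125) or 3 (0.0717), with the replicate block (0.054), after array median centring (0.075), with an intensity trend removed (0.0621) and with probe sets averaged (0.11). The PFKFB3 to PFKFB4 log2 ratio fell by 0.33 ± 0.05 and the PFKFB2 to PFKFB3 ratio by 0.29 ± 0.04 (SE, n = 3 each; exact permutation p = 0.1 for both). ALDOA, the main aldolase gene, read 13.66, 13.67 and 13.69 in the control arrays and 13.46, 13.61 and 13.62 in the mimic arrays. The mimic arrays lay just below, and the difference of -0.10 ± 0.07 (SE) did not pass (adjusted p = 0.295); the dimmest of its 3 probe sets fell by 0.27, and with probe sets averaged ALDOA passed as lower (adjusted p = 0.0432). ALDOC, a second aldolase gene (-0.13 ± 0.06 SE), and TPI1, triose phosphate isomerase (0.17 ± 0.06 SE), did not pass either, with limma adjusted p-values of 0.165 and 0.0664. TPI1 passed as higher under 6 other settings, among them quantile normalization again (0.24, adjusted p = 0.0101) and eBayes trend and robust (0.17, adjusted p = 0.0083). The ALDOA to ALDOC ratio moved by 0.03 ± 0.09 (SE, n = 3 each; exact permutation p = 0.7).

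**Figure D2:**
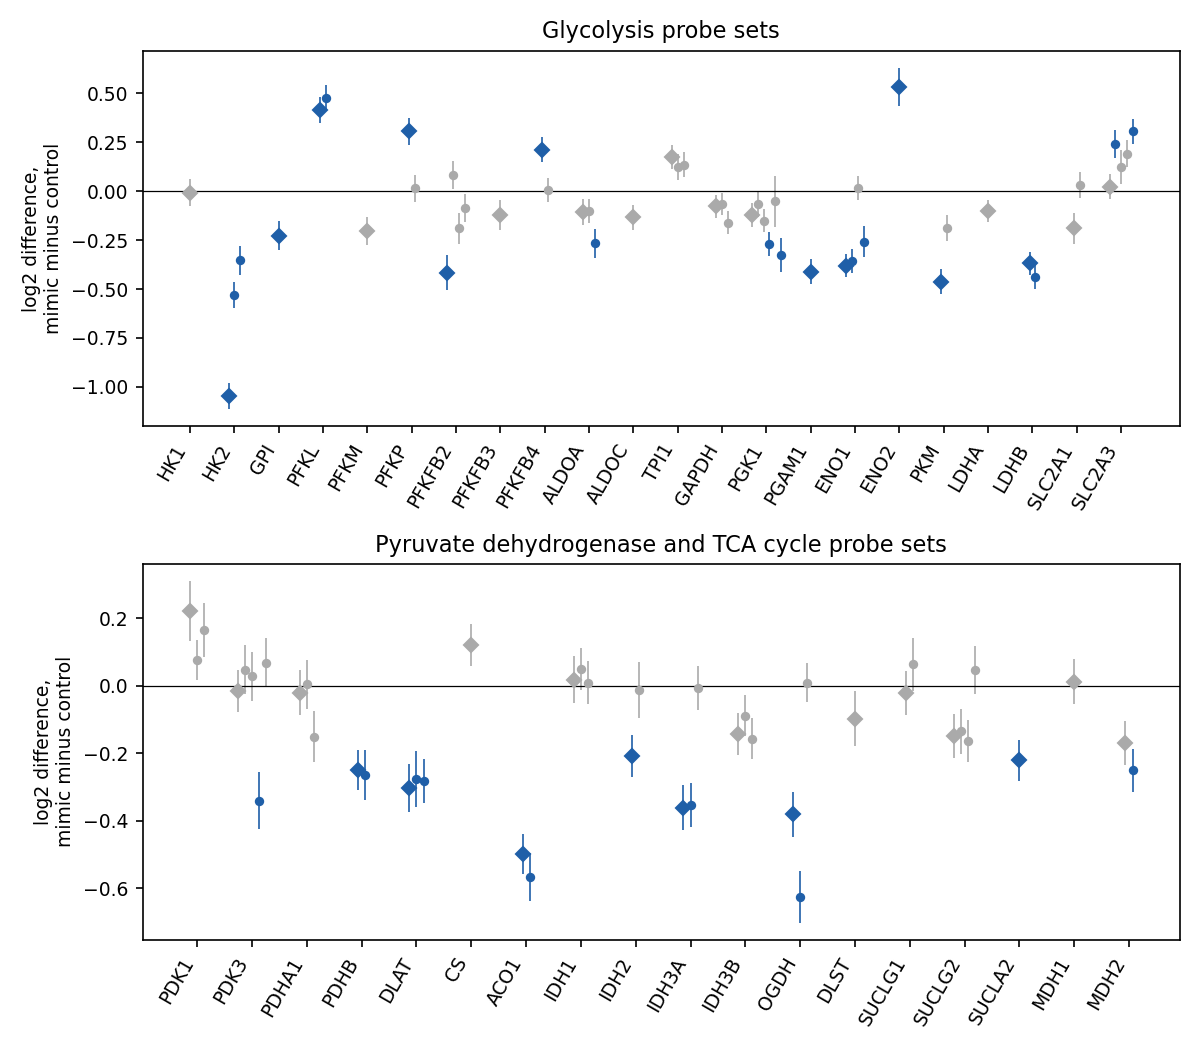
Log2 difference, mimic minus control (y axis), of each of the 51 glycolysis probe sets (upper panel) and 44 pyruvate dehydrogenase and TCA cycle probe sets (lower panel), grouped by gene (x axis). Bars are limma standard errors, diamonds are the brightest probe set of each gene, and blue marks an adjusted p under 0.05. No gene has probe sets called in opposite directions.

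Lower glycolysis turns triose phosphate into pyruvate and recovers ATP. GAPDH, the dehydrogenase often used as a reference gene, read 14.44, 14.43 and 14.46 in the control arrays and 14.37, 14.36 and 14.37 in the mimic arrays. The groups were separate but close, and the difference of -0.08 ± 0.06 (SE) did not pass (adjusted p = 0.376), nor did the other 2 GAPDH probe sets at -0.07 and -0.16. The array's own GAPDH control probe sets, which are no members, also read lower in the mimic arrays, at 14.17 to 14.18 against 14.26 to 14.30 for the 3′ set. PGK1, the first step that makes ATP, had a difference of -0.12 ± 0.06 (SE; adjusted p = 0.182) at its brightest probe set, while 2 of its 6 probe sets fell, by 0.27 and 0.32. PGK1 passed as lower with eBayes trend and robust (adjusted p = 0.0367) and with probe sets averaged (adjusted p = 0.0325). PGAM1, phosphoglycerate mutase, read 12.81, 12.85 and 12.79 in the control arrays and 12.31, 12.43 and 12.47 in the mimic arrays. All mimic arrays were lower, a 1.33-fold fall (limma adjusted p = 0.000669).

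ENO1 and ENO2 moved in opposite directions. ENO1, the enolase of most cells, read 13.25, 13.25 and 13.20 in the control arrays and 12.83, 12.83 and 12.91 in the mimic arrays. It fell 1.30-fold with no overlap (limma adjusted p = 0.000652), on 3 of 4 probe sets. ENO2, known from neurons and induced by low oxygen in many cells, read 6.76, 6.62 and 6.93 in the control arrays and 7.12, 7.38 and 7.41 in the mimic arrays. It rose 1.45-fold (limma adjusted p = 0.0017), and every value lay below the array medians; detection calls were not analysed here. The ENO1 to ENO2 log2 ratio fell by 0.91 ± 0.13 (SE, n = 3 each) with no overlap (exact permutation p = 0.1).

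PKM, pyruvate kinase of most tissues, read 12.80, 12.93 and 12.89 in the control arrays and 12.46, 12.40 and 12.37 in the mimic arrays. This was a 1.38-fold fall (limma adjusted p = 0.000242) with the groups well apart; the second PKM probe set, at -0.19, did not pass, and the M1 and M2 splice forms were not told apart. LDHB, the heart-type lactate dehydrogenase subunit, read 13.83, 13.86 and 13.85 in the control arrays and 13.43, 13.50 and 13.49 in the mimic arrays. It fell 1.29-fold (limma adjusted p = 0.000742) and its second probe set fell by 0.44. LDHA, the muscle-type subunit, read 14.31, 14.29 and 14.30 in the control arrays and 14.20, 14.21 and 14.20 in the mimic arrays. These groups did not overlap, but the difference of -0.10 ± 0.06 (SE) did not pass (adjusted p = 0.245); it did with eBayes trend and robust (adjusted p = 0.0182). Within arrays the LDHA to LDHB log2 ratio rose by 0.27 ± 0.03 (SE, n = 3 each; exact permutation p = 0.1). GAPDH and LDHA lie close to the highest values of the arrays. The probe sets read for PFKL, ALDOA, GAPDH and LDHB are of a kind that can also match related transcripts, per their identifiers. So are the second LDHB probe set, the other ALDOA and GAPDH probe sets, the dimmer PFKP one and the SLC2A3 one that rose by 0.24.

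**Figure D3:**
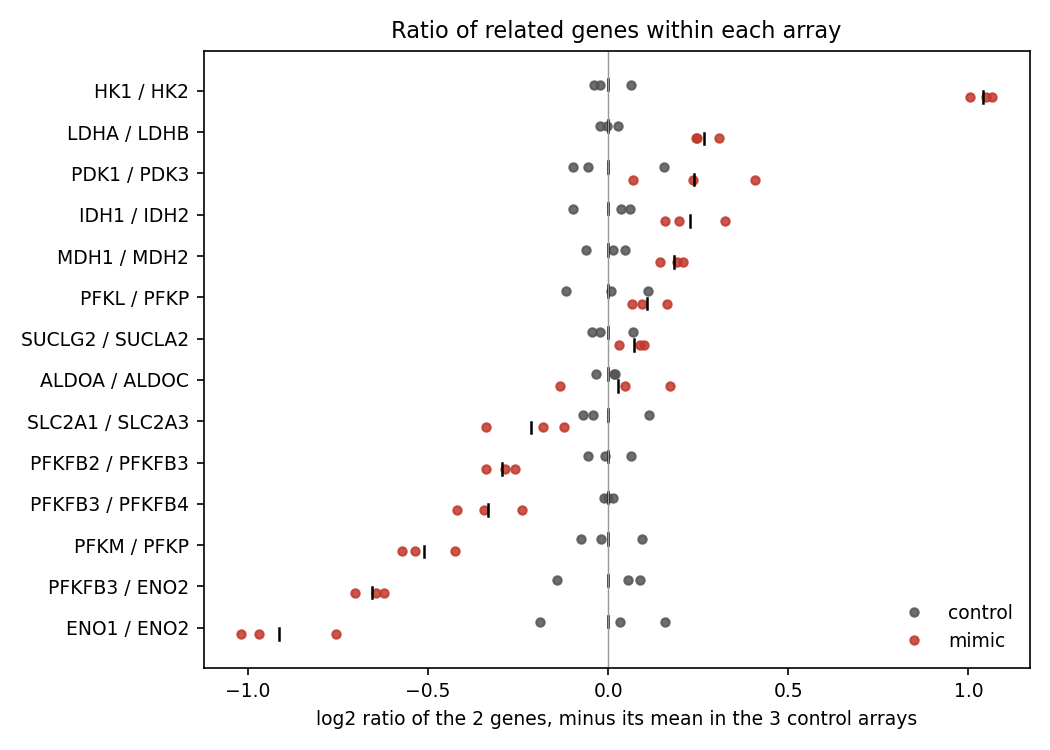
Log2 ratio of 14 pairs of related members within each array, as the distance from the pair's mean in the 3 control arrays (x axis); rows are pairs (y axis), points are arrays (grey control, red mimic) and bars are group means. The HK1 to HK2 ratio moved most (1.04), and 10 of the 14 pairs have no overlap between groups. PFKFB3 and ENO2, a pair from different steps, are among the 10.

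Over the 14 pairs, exact permutation p-values were 0.1 for the 10 without overlap and 0.2 to 0.7 for the others (0.14 and 0.233 to 0.7 after Benjamini-Hochberg over the 14), so with 3 arrays a group none could pass 0.05. The PFKFB3 to ENO2 ratio, of genes that act at different steps, fell by 0.66 ± 0.08 (SE, n = 3 each; exact permutation p = 0.1). The share of other gene pairs without overlap was not analysed here, and among all single genes it was 45.8%. A ratio of this kind shows unequal change of 2 probe sets and says nothing about which has more transcript.

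Of the 18 pyruvate dehydrogenase and TCA cycle genes, 7 fell (PDHB, DLAT, ACO1, IDH2, IDH3A, OGDH and SUCLA2) and 0 rose in limma; at an unadjusted p under 0.05, 10 were lower and 1 higher (PDK1). Over all 21357 genes, 16.4% were lower and 14.3% higher in limma. With the unadjusted p, 4247 of all genes were lower and 4464 higher. Without the dimmest 40% of probe sets, 3584 of 16348 genes fell and 3131 rose, and in this group 7 fell and 0 rose. After quantile normalization again 1 gene (CS) was called higher and 7 lower. The median difference was -0.15, against 0.03 over all genes, and the largest was -0.50. Mimic arrays all lay below control arrays in 10 of the 18 and above in 1, with 22.0% and 23.9% over all genes. Mimic replicate 1 was the lowest mimic array in 14 of the 18; without it 6 fell and 1 rose.

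The pyruvate dehydrogenase complex, which links glycolysis to the cycle, fell in part. DLAT, its acetyl-transferring core, read 10.91, 10.94 and 10.84 in the control arrays and 10.46, 10.65 and 10.66 in the mimic arrays. Mimic replicate 1 was lowest, the groups were separate (limma adjusted p = 0.00873), and all 3 DLAT probe sets fell, by 0.28 to 0.30. PDHB, the beta subunit that forms part of the decarboxylase, read 12.30, 12.29 and 12.23 in the control arrays and 11.99, 12.02 and 12.07 in the mimic arrays. Every mimic array was below (limma adjusted p = 0.0102), and its second probe set fell by 0.26. PDHA1, the alpha subunit that kinases switch off, had a difference of -0.02 ± 0.07 (SE; adjusted p = 0.866), and none of its 3 probe sets passed. Of the kinases, PDK1, a gene induced by low oxygen, had a difference of 0.22 ± 0.09 (SE; adjusted p = 0.102) with overlapping groups; it passed without mimic replicate 1 (0.30, adjusted p = 0.0301), with the replicate block (adjusted p = 0.041) and with array weights (adjusted p = 0.0215). PDK3 had -0.02 ± 0.06 (SE; adjusted p = 0.888), and 1 of its 5 probe sets fell, by 0.34. The PDK1 to PDK3 log2 ratio moved by 0.24 ± 0.13 (SE, n = 3 each) and the groups overlapped (exact permutation p = 0.2).

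**Figure D4:**
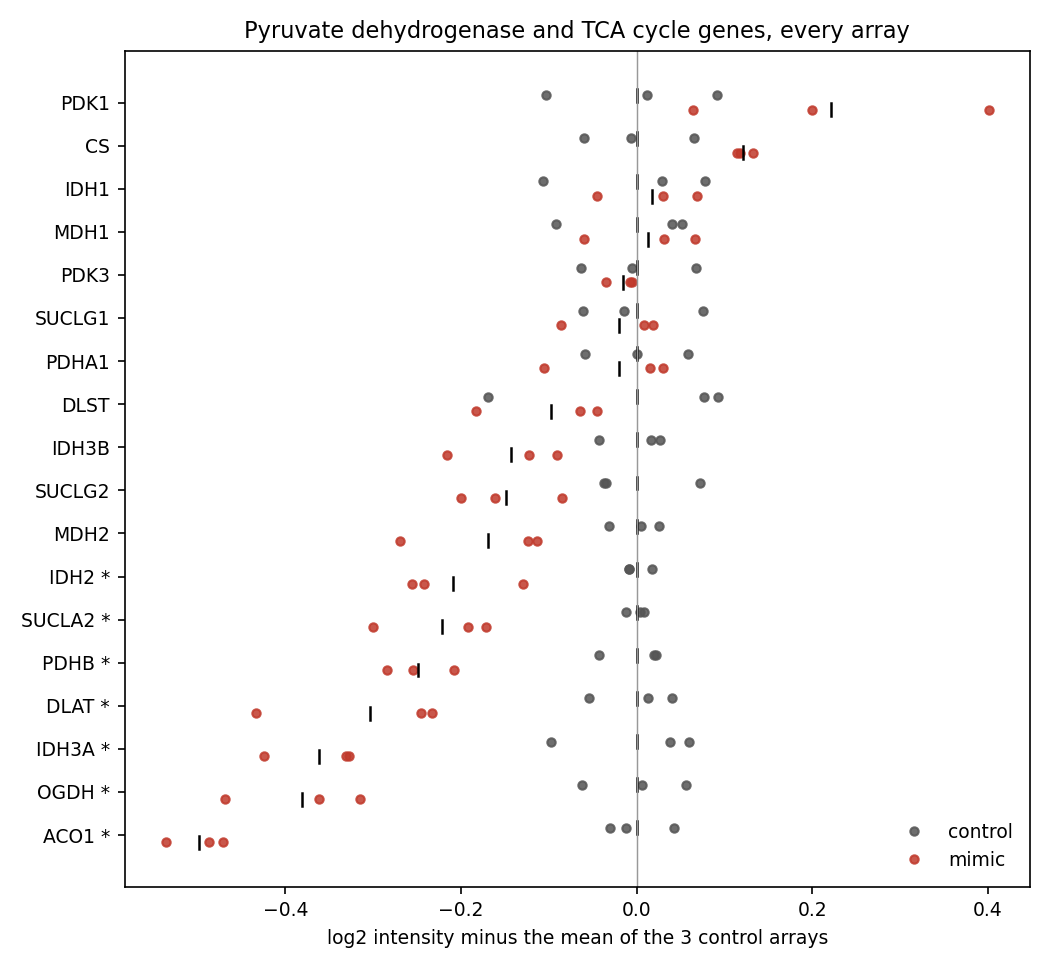
Log2 intensity of the 18 pyruvate dehydrogenase and TCA cycle genes in each of the 6 arrays, as the distance from the gene's mean in the 3 control arrays (x axis); rows are genes (y axis), points are arrays (grey control, red mimic), bars are group means, and an asterisk marks an adjusted p under 0.05 in limma. The 7 marked genes all lie on the low side, from ACO1 at -0.50 to IDH2 at -0.21.

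CS, citrate synthase, which opens the cycle, read 12.47, 12.54 and 12.42 in the control arrays and 12.60, 12.61 and 12.59 in the mimic arrays. Its mimic arrays lay above, by 0.12 ± 0.06 (SE), without passing (adjusted p = 0.19); after quantile normalization again it passed (0.19, adjusted p = 0.0278). IDH3A, the catalytic subunit of the NAD-dependent isocitrate dehydrogenase, read 10.28, 10.30 and 10.14 in the control arrays and 9.81, 9.91 and 9.91 in the mimic arrays. It fell 1.28-fold (limma adjusted p = 0.00203), on 2 of 3 probe sets. Its partner IDH3B had a difference of -0.14 ± 0.06 (SE; adjusted p = 0.13). IDH2, the mitochondrial NADP-dependent enzyme, fell by 0.21 ± 0.06 (SE; limma adjusted p = 0.0305) on 1 of 2 probe sets, a call lost without control replicate 1 (adjusted p = 0.0847), 2 (0.0921) or 3 (0.0613) and without mimic replicate 1 (0.0591) or 3 (0.0883), and with probe sets averaged (0.176). OGDH, the first enzyme of the 2-oxoglutarate dehydrogenase complex, read 10.47, 10.59 and 10.54 in the control arrays and 10.21, 10.17 and 10.06 in the mimic arrays. That was a 1.30-fold fall without overlap (limma adjusted p = 0.00135); a second probe set fell by 0.63 and the third, at 0.01, did not pass. DLST, the core of that complex, had -0.10 ± 0.08 (SE; adjusted p = 0.439) and overlapping groups.

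Succinyl-CoA ligase makes ATP or GTP from succinyl-CoA, with 1 beta subunit for each nucleotide. SUCLA2, the ATP-specific subunit, read 11.42, 11.42 and 11.40 in the control arrays and 11.12, 11.22 and 11.24 in the mimic arrays. It fell 1.17-fold (limma adjusted p = 0.0228), a call lost without control replicate 1 (adjusted p = 0.0759) or 2 (0.068) and without mimic replicate 2 (0.0606), and with an intensity trend removed (0.0694). SUCLG2, the GTP-specific subunit, had -0.15 ± 0.06 (SE; adjusted p = 0.126) and the shared subunit SUCLG1 -0.02 ± 0.07 (SE; adjusted p = 0.866), and neither passed; SUCLG2 did with array weights (adjusted p = 0.0375). The SUCLG2 to SUCLA2 ratio moved by 0.07 ± 0.04 (SE, n = 3 each), with overlapping groups (exact permutation p = 0.2). MDH2, malate dehydrogenase of mitochondria, had -0.17 ± 0.07 (SE; adjusted p = 0.0886) and its dimmer probe set fell by 0.25; MDH2 passed as lower with eBayes trend and robust (adjusted p = 0.0177) and with probe sets averaged (adjusted p = 0.0108).

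ACO1, IDH1 and MDH1 act in the cytosol. ACO1, the cytosolic aconitase that doubles as iron regulatory protein, read 10.16, 10.21 and 10.14 in the control arrays and 9.63, 9.68 and 9.70 in the mimic arrays. It was the largest fall in this group, 1.41-fold (limma adjusted p = 8.87e-05), and its second probe set fell by 0.57. IDH1 and MDH1, the cytosolic isocitrate and malate dehydrogenases, had differences of 0.02 ± 0.07 and 0.01 ± 0.07 (SE; adjusted p = 0.887 and 0.922) with overlapping groups. The IDH1 to IDH2 log2 ratio rose by 0.23 ± 0.07 and the MDH1 to MDH2 ratio by 0.18 ± 0.04 (SE, n = 3 each; exact permutation p = 0.1 for both).

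Counted by probe set, 7 of the 95 rose and 30 fell, where 24.8% of all probe sets were called, 11.6% higher and 13.1% lower. Mimic arrays lay above control arrays on 12 of the 95 and below on 50, where the shares over all probe sets were 20.9% and 18.2%, 39.2% together. In glycolysis 7 of 51 probe sets rose and 15 fell, and in the other group 0 of 44 rose and 15 fell (1 and 20 at an unadjusted p under 0.05). Of all 54613 probe sets, 10066 were higher and 9003 lower at that unadjusted threshold.

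Genes of the same pathways outside the member list were read in the same fit, where 14.3% of all 21357 genes were higher and 16.4% lower, with a median of 0.03. Of 28 measured genes of glycolysis and gluconeogenesis, 2 rose and 7 fell (7.14% and 25.0%, median -0.06), a called share of 32.1% that is close to the 30.7% of all genes. SLC16A7, a monocarboxylate transporter that takes up pyruvate and lactate, fell by 1.22 ± 0.12 (SE), with each of its 5 probe sets called lower, from 9.36, 9.49 and 9.20 in the control arrays to 7.85, 8.33 and 8.21 in the mimic arrays. PCK2, the mitochondrial enzyme that makes phosphoenolpyruvate, rose by 0.75 ± 0.07 (SE). TIGAR, which removes fructose 2,6-bisphosphate, fell by 0.58 ± 0.08 (SE).

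Of 24 other pyruvate and TCA cycle genes, 3 rose and 9 fell (12.5% and 37.5%, median -0.14). PDK4, a kinase that switches the pyruvate dehydrogenase complex off, read 12.74, 12.74 and 12.72 in the control arrays and 13.98, 14.04 and 14.04 in the mimic arrays. It rose 2.45-fold (limma adjusted p = 4.98e-08) on all 3 of its probe sets, the largest rise in this list. PDHX, which anchors the third enzyme of the complex, fell by 0.67 ± 0.08 (SE), and PC, pyruvate carboxylase, which refills the cycle with oxaloacetate, by 0.85 ± 0.06 (SE). In the pentose phosphate pathway, the branch that makes NADPH and ribose, 1 of 8 measured genes fell (RPE, by 0.50 ± 0.06 SE) and 0 rose in limma, with 2 higher and 2 lower at an unadjusted p under 0.05. Of all 21357 genes, 4464 were higher and 4247 lower at that unadjusted threshold.

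Of 19 regulators of these pathways, 6 rose and 4 fell (31.6% and 21.1%, median 0.07), where 14.3% of all genes were higher and 16.4% lower. PPARGC1A, a coactivator of mitochondrial genes, fell 2.82-fold on 1 of 2 probe sets, MYC, a transcription factor that drives glycolytic genes in growing cells, 2.66-fold, and ARRDC4, an inhibitor of glucose uptake, 2.53-fold (limma adjusted p = 9.69e-08, 1.26e-07 and 2.23e-07). The mimic values of PPARGC1A, 6.67 to 6.84, lay below the array medians, so its fold depends on a level whose distance from background is not known. TXNIP, a relative of ARRDC4 that also restrains glucose uptake, rose by 0.58 ± 0.06 (SE; limma adjusted p = 3.24e-05) on 3 of 3 probe sets; it was the largest rise in this list and was named after its value was seen. MYC read 12.42, 12.38 and 12.21 in the control arrays and 10.86, 10.96 and 10.96 in the mimic arrays. Of 13 hypoxia-induced genes outside glycolysis, 7 rose and 2 fell (53.8% and 15.4%, median 0.28 against 0.03 over all genes); P4HA1, a collagen prolyl hydroxylase, rose 2.63-fold and KDM3A, a histone demethylase, 1.62-fold, each on 1 of 2 probe sets, and STC2, a secreted glycoprotein, fell 1.55-fold.

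**Figure D5:**
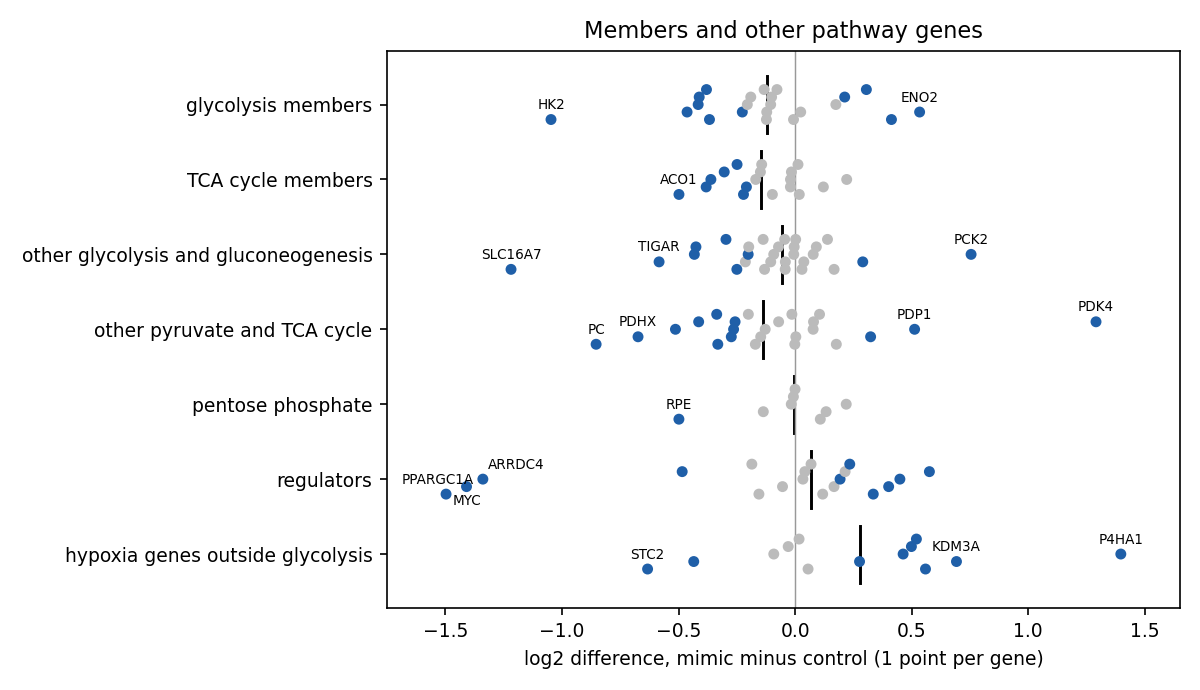
Log2 difference, mimic minus control (x axis), of each glycolysis and TCA cycle member and of 5 lists of other genes (rows on the y axis); each point is a gene, blue marks an adjusted p under 0.05 in limma and bars are list medians. PDK4 and P4HA1 lie farthest to the high side and PPARGC1A farthest to the low side.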

How the data were processed

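Per the submitters' processing notes, the authors made the deposited values with RMA (its options not given in the sources used here). Deposited values are log2 intensities, a scale read from their range on every array. RMA scales arrays to each other, so an overall shift in RNA may not show; array medians still differed, from 7.59 to 7.66. The table holds 54675 probe sets; 62 control probe sets were left out. Symbols came from the platform annotation, split where it lists several: 41091 probe sets have 1 symbol, 1801 several and 11721 none.

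The 6 arrays entered 1 limma 3.58.1 model (R 4.3.3, lmFit, then eBayes). Differences, errors (SE) and p-values come from that fit. In simulated data with 200 of 54613 probe sets raised, 98% of rises of 0.5 and 100% of rises of 1 were called. Of the simulated calls, 7.91% were unchanged probe sets. In the real arrays 24.8% of probe sets were called, in both directions, so the simulation gives no error rate for these calls. Ratios within arrays were compared with exact two-sided permutation tests (scipy 1.17.1). Precision is limited by having 6 arrays. The numbers of the replicates were not used as pairs.

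Members and lists were chosen with earlier results of these data known. The rule for named genes gives values in every array for the 8 glycolysis and 6 pyruvate dehydrogenase and TCA cycle genes with the largest called difference and for GAPDH, ALDOA, PKM, LDHA and CS, and up to 3 genes of each other list. The other settings were a filter on dim probe sets, renormalization, centring, variance prior, array weights, replicate block, leaving out each array, averaged or 1-symbol probe sets, a stricter threshold and removal of an intensity trend.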

Additional observations from a re-analysis of the deposited data

How the results depend on the processing

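Of 599 values of the 40 members under other settings, 517 kept direction and side of the threshold, 26 gained a call, 26 lost one and 30 changed sign. The 517 do not measure how far the calls held, since they include members that were not called. The replicate block and the variance prior keep the main differences, and 1-symbol probe sets change the reading of SLC2A3 only. The calls that were lost were those of GPI, PFKFB4, IDH2 and SUCLA2, given above. No called gene changed sign. Where a value below differs, the cause was not tested. With each array left out in turn, glycolysis genes numbered 3 to 4 higher and 6 to 8 lower, pyruvate dehydrogenase and TCA cycle genes 0 to 1 higher (PDK1 without mimic replicate 1) and 5 to 6 lower, and member probe sets 5 to 7 higher and 23 to 30 lower. One such gene was also higher with array weights (PDK1) and after quantile normalization again (CS), so 1 in each. Array weights gave 11 probe sets higher. With eBayes trend and robust, and likewise with probe sets averaged, 5 glycolysis genes were higher and 10 lower, against 4 and 7. At a threshold of 0.01, 6 glycolysis genes, 4 pyruvate dehydrogenase and TCA cycle genes and 19 member probe sets were lower.

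The replicate block gave 3 glycolysis genes higher and 7 lower, 1 pyruvate dehydrogenase and TCA cycle gene higher (PDK1) and 7 lower, and 7 and 30 probe sets. Deviations of arrays with the same replicate number correlated at -0.11, 0.08 and 0.08, so the numbers were not taken to pair the arrays.

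Sign changes concerned genes near 0, none of them called at these values. With array median centring, SLC2A3 was at -0.0052, IDH1 at -0.0112 and MDH1 at -0.0167. With array weights, HK1 was at 0.041, SLC2A3 at -0.0114, PDHA1 at 0.0031 and SUCLG1 at 0.003. With the intensity trend removed, HK1 was at 0.0439, SLC2A3 at -0.0271, PDHA1 at 0.0257 and SUCLG1 at 0.0306. After quantile normalization again, HK1 was at 0.0545, SLC2A3 at -0.0081, PDK3 at 0.0116, PDHA1 at 0.0495 and SUCLG1 at 0.074, and with probe sets averaged SUCLG1 was at 0.0219. With each array left out, HK1 ranged from -0.0365 to 0.0379, SLC2A3 from -0.006 to 0.0446, PDK3 from -0.0472 to 0.0182, PDHA1 from -0.0493 to 0.0226, IDH1 from -0.0354 to 0.057, SUCLG1 from -0.0503 to 0.0181 and MDH1 from -0.0334 to 0.0489.

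ENO2 has no value without the dimmest 40% of probe sets. GAPDH and LDHA read close to the highest value of the arrays, and without detection calls a level below the array medians has no known distance from background.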

Other observations

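Some further genes, chosen after their values were seen, act on the same steps. PDP1, the phosphatase that switches the pyruvate dehydrogenase complex on again, read 10.80, 10.77 and 10.75 in the control arrays and 11.23, 11.32 and 11.32 in the mimic arrays. It rose 1.43-fold (limma adjusted p = 7.75e-05) on both of its probe sets, while the kinase gene PDK4 rose as well. PDK2, another of the kinases, had a difference of 0.08 ± 0.06 (SE) and did not pass (limma adjusted p = 0.432).

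HIF1A, an oxygen-regulated subunit of the hypoxia-inducible factors, fell by 0.48 ± 0.07 (SE, limma adjusted p = 0.000273). EPAS1, another such subunit, rose by 0.19 ± 0.06 (SE, limma adjusted p = 0.0365) on 1 of 3 probe sets. Among genes that low oxygen induces, ADM, a peptide hormone gene, rose by 0.52 ± 0.06 and BNIP3, a mitophagy receptor, by 0.50 ± 0.07, whereas VEGFA, a growth factor of blood vessels, fell by 0.43 ± 0.08 (SE), with 2 of 4 probe sets called lower. The protein level and activity of these regulators were not measured.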
